A study of Mus musculus with 35 samples.

Results

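The genes described here encode the class II and class IV histone deacetylases and the MEF2 transcription factors that class IIa deacetylases bind. They were chosen by gene symbol. *Hdac4*, *Hdac5*, *Hdac7* and *Hdac9* form class IIa, *Hdac6* and *Hdac10* class IIb, and *Hdac11* class IV, and *Mef2a*, *Mef2c* and *Mef2d* complete the set. These 10 symbols have 11 identifiers among the 39109 entries of the count table, because *Hdac4* has 2, ENSMUSG00000026313 and ENSMUSG00000073617. All 11 identifiers were among the 32863 entries left after the removal of short genes, spike-ins and mitochondrial ribosomal RNA, and all 11 passed the filter on low counts in each comparison.

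The deposited RNA libraries come from the striatum of 35 mice, 1 library per mouse, not counting 1 male of the *Htt*+/+ *Hdac2* WT group that the authors dropped for sequencing quality, and were made to ask how loss of the deacetylase HDAC2 in medium spiny neurons (MSNs) acts on the striatal transcriptome with and without a mutant *Htt* allele. *Htt* Q111 carries an expanded CAG repeat knocked into the mouse gene, and the labels give repeat lengths of 110 to 144 in the carriers. *Hdac2* was floxed and was deleted over exons 2 to 4 by D9-Cre, a transgene driven by regulatory sequence of *Ppp1r1b*, the gene of DARPP-32, which is active in MSNs. Mice were aged 21.7 to 23.0 weeks, and libraries held 50970712 to 77867348 counts in genes, with a median of 57322618.

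The groups were *Htt*+/+ *Hdac2* WT (n = 8, 5 males and 3 females), *Htt* Q111/+ *Hdac2* WT (n = 7, 4 males and 3 females), *Htt*+/+ *Hdac2* KO (n = 9, 5 males and 4 females) and, with both alterations, *Htt* Q111/+ *Hdac2* KO (n = 11, 8 males and 3 females). The *Htt* mice were on C57BL/6J, and the floxed line came from a mixed C57BL/6/129SeEv background. The authors' sample table gives floxed *Hdac2* alleles to the *Hdac2* WT mice as well, 1 allele in 2 *Htt*+/+ mice and 2 in the others. No *Hdac2* WT mouse carries Cre, so the effects of Cre and of the deletion cannot be told apart.

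Class IIa deacetylases have little catalytic activity of their own and act mainly by bringing corepressor complexes with HDAC3 to DNA-bound factors, chief among them MEF2. Calcium-dependent and other kinases phosphorylate class IIa deacetylases, 14-3-3 proteins then hold them in the cytoplasm, and MEF2 at its sites is released from repression. In striatal MSNs MEF2 takes part in activity-dependent control of synapse number, while HDAC6 deacetylates tubulin in the cytoplasm, HDAC10 deacetylates polyamines and HDAC11 removes long fatty acyl groups from proteins.

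The targeted gene served as a check of the labels. Levels are in counts-per-million units (CPM) after TMM scaling, given as the lowest, the median and the highest library of a group. *Hdac2* stood at 97.6, 104 and 107 CPM in *Htt*+/+ *Hdac2* WT and at 95.5, 105 and 111 CPM in *Htt* Q111/+ *Hdac2* WT. It stood at 89.4, 94.4 and 99.2 CPM in *Htt*+/+ *Hdac2* KO and at 89.8, 95.5 and 101 CPM in *Htt* Q111/+ *Hdac2* KO. Every KO library lay below the median of the WT group with the same *Htt* genotype, and 8 of 9 and 6 of 11 KO libraries lay below the lowest WT library. The fold change, KO over WT, was -0.09 ± 0.03 on the log2 scale (SE; edgeR quasi-likelihood, Benjamini-Hochberg adjusted p = 0.0552) in *Htt*+/+ and -0.12 ± 0.03 (adjusted p = 0.00198) in *Htt* Q111/+. Counts were taken over the whole gene interval in whole striatum, so transcripts without the deleted exons and *Hdac2* RNA of other cells are in these values. In bulk tissue, fewer cells of a type and less RNA per cell cannot be told apart.

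Levels were compared between genes as CPM per kilobase of annotated exon inside the counted interval, mean ± SD over the 35 libraries. *Hdac11* (32.2 ± 2.62) and *Mef2d* (29.6 ± 3.16) had the highest levels per kilobase. *Mef2a* (18.4 ± 1.47) and *Hdac5* (16.2 ± 1.56) followed. *Hdac6* (6.93 ± 0.627), *Mef2c* (6.4 ± 1.1) and the short *Hdac4* entry ENSMUSG00000073617 (6.19 ± 0.955) formed the next tier. *Hdac7* (2.73 ± 0.343), *Hdac9* (2.39 ± 0.239) and *Hdac10* (2.38 ± 0.272) came next, and the long *Hdac4* entry ENSMUSG00000026313 was last (1.43 ± 0.269). Within each of these tiers the ranges of mean ± SD overlapped, and between neighbouring tiers they did not. On the same scale *Hdac2* had 23.5 ± 1.34, below *Mef2d* and above *Mef2a*. Reads in introns are in the counts and the intervals hold only some of each gene's annotated exon bases, 46.9% for *Mef2d* and 99.8% for *Mef2a*, so this order is approximate.

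The members differed in how evenly the 35 libraries expressed them. The coefficient of variation of CPM was 7.98% for *Mef2a* and 8.11% for *Hdac11*, and it was 17.2% for *Mef2c* and 18.8% for *Hdac4* ENSMUSG00000026313. The median over the 17346 genes that passed the filter was 11.5%. Among the MEF2 genes, *Mef2c* was the one whose level varied most from mouse to mouse on this measure.

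Deletion of *Hdac2* on each *Htt* background asks which of these genes respond to loss of the class I enzyme. In *Htt*+/+ mice *Hdac6*, the tubulin deacetylase, rose and *Hdac11*, the class IV enzyme, fell, so that 2 of the 11 identifiers passed an adjusted p of 0.05, where 17.8% of the 17126 genes tested passed. In *Htt* Q111/+ mice *Mef2d*, *Mef2c* and *Hdac11* fell and *Hdac5* passed with a negative fitted change that its group levels do not show, 4 of the 11, where 16.5% of 17169 genes passed. Averaged over both *Htt* backgrounds, *Mef2d* and *Hdac11* fell, *Hdac6* rose and *Hdac5* again passed with a negative fitted change, 4 of the 11, where 25.0% of 17346 genes passed. The members' median absolute log2 fold change was 0.108 in *Htt*+/+ and 0.101 in *Htt* Q111/+, beside 0.095 and 0.082 over all genes tested. With 11 identifiers, nothing is read from the number of calls beside these background shares.

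*Mef2d* encodes an activity-regulated MEF2 factor that is abundant in adult neurons. It stood at 81.9, 91.2 and 97.1 CPM in *Htt*+/+ *Hdac2* WT and at 69.4, 77.8 and 87.1 CPM in *Htt*+/+ *Hdac2* KO. In the *Htt* Q111/+ mice it stood at 81.3, 91.4 and 99.2 CPM in *Hdac2* WT and at 65.2, 77.4 and 82.4 CPM in *Hdac2* KO. All 9 and all 11 KO libraries lay below their WT median, and 6 and 9 of them lay below the lowest WT library, so the groups overlapped in part. The log2 fold change was -0.13 ± 0.05 in *Htt*+/+ (adjusted p = 0.0571) and -0.19 ± 0.04 in *Htt* Q111/+ (adjusted p = 0.00158, lower in 11 of 11). Averaged over both backgrounds *Mef2d* fell by 0.16 ± 0.04 on the log2 scale (adjusted p = 0.00107, lower in 9 of 9 and 11 of 11 KO libraries). The difference between the backgrounds was -0.05 on the log2 scale and did not pass the test.

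Because RNA was extracted on 6 dates that nearly follow the *Hdac2* genotype, *Mef2d* was also read within dates. On 27 May, the date that holds *Htt*+/+ mice of both *Hdac2* genotypes, the 1 KO library differed from the mean of 3 WT libraries by -0.373 on the log2 scale, and on 25 May the *Htt* Q111/+ KO library differed from 2 WT libraries by -0.217. With extraction date as a model term in place of the surrogate variables, which are estimated from the counts, the fold change of *Mef2d* was -0.30 in *Htt*+/+ (adjusted p = 0.029, range over alternatives 0.000551 to 0.411) and -0.31 in *Htt* Q111/+ (adjusted p = 0.0483, range 0.00012 to 0.0544). It was the 1 member called in each of these fits with date. The other dates hold a single *Hdac2* genotype.

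*Mef2a*, a MEF2 factor that shapes the differentiation of dendritic synapses, stood at 265, 287 and 307 CPM in *Htt*+/+ *Hdac2* WT and at 239, 260 and 298 CPM in *Htt*+/+ *Hdac2* KO. In *Htt* Q111/+ mice it stood at 252, 287 and 301 CPM in *Hdac2* WT and at 213, 256 and 285 CPM in *Hdac2* KO. KO libraries lay below the WT median in 8 of 9 and 11 of 11 cases, and the groups overlapped. Its log2 fold changes of -0.07 ± 0.04 in *Htt*+/+ (adjusted p = 0.267) and -0.10 ± 0.04 in *Htt* Q111/+ (adjusted p = 0.0528) did not pass. The change in *Htt* Q111/+ mice passed in 10 of 18 alternatives, and the average over both backgrounds, -0.08 ± 0.03 (adjusted p = 0.0552), in 11 of 17. Without *Htt* Q111/+ *Hdac2* WT replicate 7, a library left out after seeing the data and 1 of those 10, the former was -0.12 (adjusted p = 0.0189, range over alternatives 0.000957 to 0.232).

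*Mef2c*, a factor needed in developing cortical neurons and known to limit excitatory synapse number, followed a different course from its relatives. It stood at 63.0, 85.7 and 92.4 CPM in *Htt*+/+ *Hdac2* WT and at 80.1, 106 and 119 CPM in *Htt* Q111/+ *Hdac2* WT. It stood at 63.4, 80.6 and 92.8 CPM in *Htt*+/+ *Hdac2* KO and at 61.8, 77.9 and 101 CPM in *Htt* Q111/+ *Hdac2* KO. The *Htt* Q111/+ *Hdac2* WT group stood highest, with 5 of its 7 libraries above every *Htt*+/+ *Hdac2* WT library, and the other 3 groups covered much the same span. All 11 *Htt* Q111/+ KO libraries lay below the WT median and 8 lay below the lowest WT library. There *Mef2c* fell by 0.14 ± 0.04 on the log2 scale (adjusted p = 0.0311). In *Htt*+/+ mice the fold change was 0.11 ± 0.05 (adjusted p = 0.166, past the threshold in 1 of 18 alternatives, range 0.0228 to 0.895) although 6 of 9 KO libraries lay below the WT median, and without covariates it was -0.07, so its sign depends on the model.

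The highest *Mef2c* level, 119 CPM, was in *Htt* Q111/+ *Hdac2* WT replicate 7, which also held the most RNA of cortical projection neuron markers, 433 CPM summed over 5 genes. Without that library, left out after seeing the data, *Mef2c* in *Htt* Q111/+ mice changed by -0.13 (adjusted p = 0.0214, range over alternatives 0.000539 to 0.377). Without the 3 libraries whose cortical marker sums were over 100 CPM, also chosen after seeing the data, it was -0.10 (adjusted p = 0.0995) and no longer passed. With extraction date as a term it was -0.43 and did not pass (adjusted p = 0.13), and with no filter -0.08 (adjusted p = 0.377). The part of cortical RNA in the *Mef2c* values was not tested beyond these fits.

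Of the class IIa deacetylases, *Hdac5* had a negative fitted change that passed in *Htt* Q111/+ KO mice, and with surrogate variables as covariates *Hdac4*, *Hdac7* and *Hdac9* did not pass in any comparison. *Hdac5* stood at 133, 148 and 157 CPM in *Htt*+/+ *Hdac2* WT and at 129, 149 and 167 CPM in *Htt*+/+ *Hdac2* KO. It stood at 118, 132 and 155 CPM in *Htt* Q111/+ *Hdac2* WT and at 116, 136 and 162 CPM in *Htt* Q111/+ *Hdac2* KO. The KO and WT groups overlapped nearly completely, and in *Htt* Q111/+ mice 6 of 11 KO libraries lay above the WT median. The fitted change, -0.12 ± 0.04 (adjusted p = 0.0229, lower than the WT median in 5 of 11), thus has the opposite sign to the difference of the medians. The call was made in 7 of 18 alternatives. Without covariates the change was 0.03 (adjusted p over alternatives 0.0158 to 0.948), and without *Htt* Q111/+ *Hdac2* WT replicate 7 it was -0.08 (adjusted p = 0.229). The average over both backgrounds, -0.09 ± 0.03 (adjusted p = 0.0213), became -0.06 without that library and did not pass, and it passed in 7 of 17 alternatives and changed sign in 3.

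*Hdac9*, a class IIa gene whose short products lack the catalytic domain, stood at 15.8, 16.4 and 18.3 CPM in *Htt*+/+ *Hdac2* WT and at 16.2, 17.9 and 20.2 CPM in *Htt*+/+ *Hdac2* KO. It was above the WT median in 8 of 9 KO libraries, and its fold change of 0.14 ± 0.06 did not pass (adjusted p = 0.132), while it passed in 1 of 18 alternatives (adjusted p 0.0491 to 0.393) and the average over both backgrounds in 2 of 17 (0.0269 to 0.486). In *Htt* Q111/+ mice its medians were 17.1 CPM in *Hdac2* WT and 18 CPM in *Hdac2* KO, with 7 of 11 KO libraries above the WT median and a fold change of 0.05 ± 0.05 that did not pass. *Hdac7* stood at 12.1, 15.9 and 17.9 CPM in *Htt*+/+ *Hdac2* WT and at 16.5, 18.5 and 23.3 CPM in *Htt*+/+ *Hdac2* KO, with 9 of 9 KO libraries above the WT median and 6 above the highest WT library. Its fold change of 0.11 did not pass (adjusted p = 0.288), and its values under the alternatives are not given here. Under some alternatives more members passed in *Htt*+/+ mice than are named in this text. In *Htt* Q111/+ mice the *Hdac7* medians were 18.1 and 18.2 CPM, 6 of 11 KO libraries lay above the WT median, and the fold change of 0.03 ± 0.06 did not pass. The counted interval of *Hdac7* overlaps the strongly counted gene *Slc48a1* on the other strand, and the strand used in counting is not stated, so reads of *Slc48a1* may be in its values.

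The 2 *Hdac4* entries cover different pieces of 1 gene. ENSMUSG00000073617 spans 2392 bases at the 3′ end (GRCm38 chr1:91928785-91931176, minus strand) and ENSMUSG00000026313 the body of the gene (chr1:91932757-92148393), with a gap of 1580 bases between them. A later annotation, GENCODE M21, holds 1 *Hdac4* gene over both. Over the 35 libraries, which share genotype groups and extraction dates, their log CPM correlated at r = 0.637. ENSMUSG00000073617 had medians of 15.3, 13.6, 14.7 and 15 CPM (WT then *Htt* Q111/+ alone, then *Hdac2* KO alone, then both), and ENSMUSG00000026313 had 16.2, 14.7, 15.2 and 15.6 CPM in the same order. Their fitted fold changes with *Hdac2* KO were 0.06 and -0.15 in *Htt*+/+ and 0.05 and -0.06 in *Htt* Q111/+, and none passed. The fitted signs were opposite, but the medians of both entries moved the same way, lower with KO in *Htt*+/+ and higher in *Htt* Q111/+. An opposite response of the entries is thus not shown.

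Of the class IIb genes, *Hdac6* passed in *Htt*+/+ mice, and *Hdac10* did not pass in either background. *Hdac6* stood at 33.0, 35.9 and 40.2 CPM in *Htt*+/+ *Hdac2* WT and at 40.0, 42.3 and 44.1 CPM in *Htt*+/+ *Hdac2* KO. In *Htt* Q111/+ mice it stood at 35.0, 37.3 and 42.5 CPM in *Hdac2* WT and at 37.4, 42.0 and 48.3 CPM in *Hdac2* KO. All KO libraries lay above their WT median, and 8 of 9 and 3 of 11 lay above the highest WT library. *Hdac6* rose by 0.18 ± 0.05 on the log2 scale in *Htt*+/+ (adjusted p = 0.0173) and was at 0.12 ± 0.05 in *Htt* Q111/+ (adjusted p = 0.0725, higher in 11 of 11). Without the 3 libraries with the most cortical marker RNA, left out after seeing the data, its *Htt*+/+ change of 0.19 did not pass (adjusted p = 0.055, range over alternatives 0.000285 to 0.405), nor did it with extraction date as a term (0.11, adjusted p = 0.405), in males only or with no filter. *Hdac10*, with medians of 7.2 and 7.09 CPM in *Htt*+/+ WT and KO and 7.88 and 7.56 CPM in *Htt* Q111/+ WT and KO, had fold changes of -0.03 and -0.05 that did not pass.

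*Hdac11* had lower medians with *Hdac2* KO and with *Htt* Q111 than without either. It stood at 80.4, 85.9 and 91.9 CPM in *Htt*+/+ *Hdac2* WT, the highest group, and at 60.6, 74.8 and 82.1 CPM in *Htt* Q111/+ *Hdac2* KO, the lowest. The groups with 1 of the 2 alterations lay between, at 74.2, 77.0 and 86.5 CPM in *Htt* Q111/+ *Hdac2* WT and at 75.3, 79.3 and 83.4 CPM in *Htt*+/+ *Hdac2* KO. In *Htt*+/+ mice 9 of 9 KO libraries lay below the WT median and 7 below the lowest WT library, and in *Htt* Q111/+ mice these were 8 and 5 of 11. *Hdac11* fell by 0.15 ± 0.04 on the log2 scale with either *Htt* genotype (adjusted p = 0.0164 for *Htt*+/+, 0.00847 for *Htt* Q111/+), and the difference between the backgrounds was 0.01. The call was lost in 2 of 18 alternatives for *Htt*+/+ and in 5 of 18 for *Htt* Q111/+. With extraction date as a term the change was -0.14 (adjusted p = 0.327, range over alternatives 0.00601 to 0.327) and -0.10 (adjusted p = 0.572, range 0.00456 to 0.572).

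**Figure D1:**
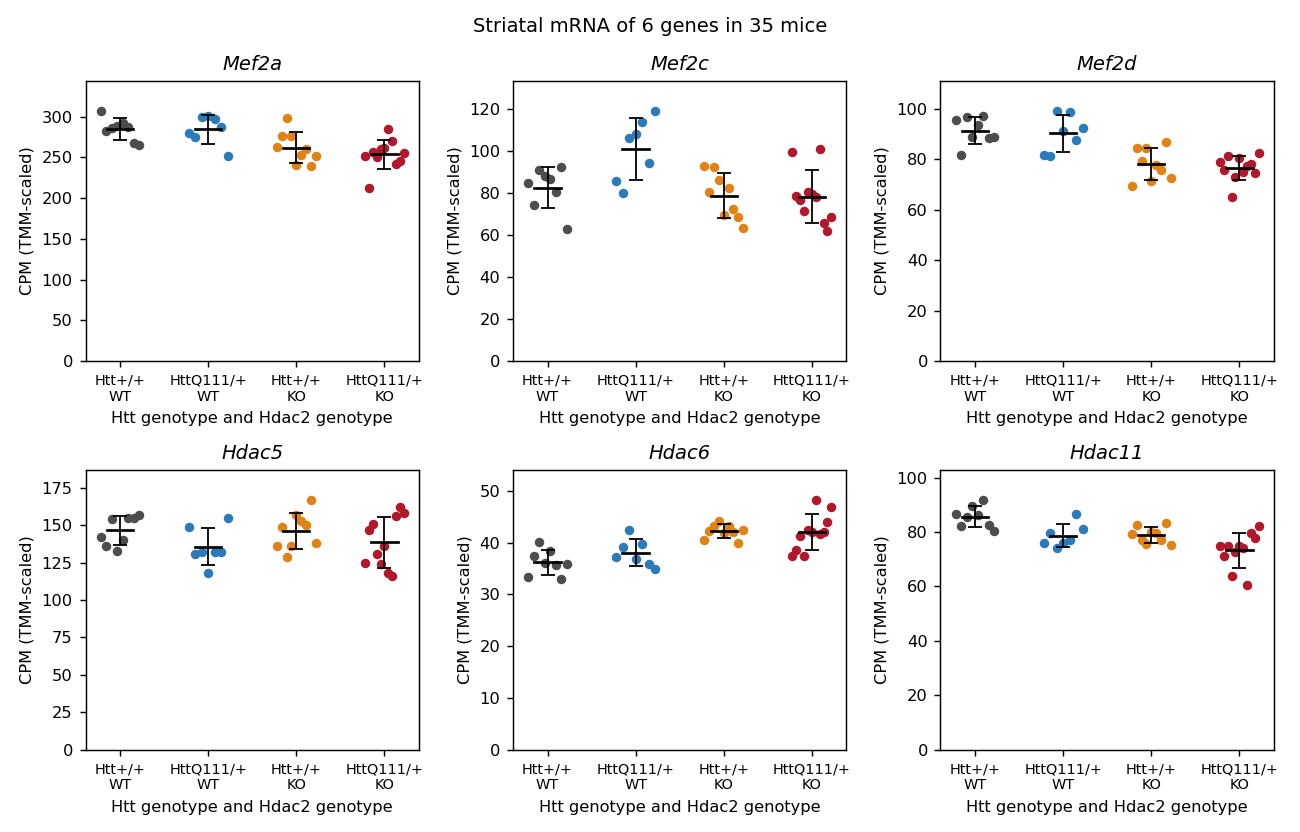
Level in CPM of 6 genes in each library, by group, with the mean and SD of each group and the vertical axis starting at 0. *Mef2d* and *Hdac11* are lower and *Hdac6* higher in most *Hdac2* KO libraries, *Mef2c* is highest in *Htt* Q111/+ *Hdac2* WT, and the *Hdac5* groups overlap.

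**Figure D2:**
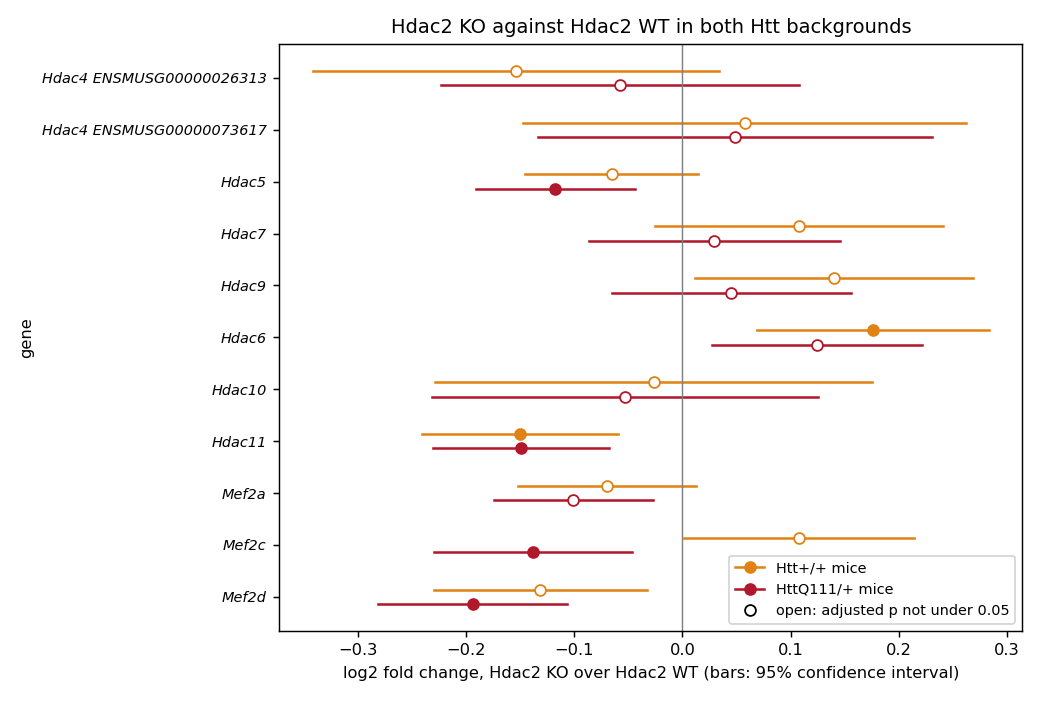
Log2 fold change of *Hdac2* KO over *Hdac2* WT with its 95% confidence interval for the 11 identifiers, in *Htt*+/+ and in *Htt* Q111/+ mice, which are different animals. Filled points have an adjusted p under 0.05 and open points do not.

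Read by the series letter of the mouse identifiers (A, V and Z), which gives 3 pairs of KO and WT sets in each *Htt* background, *Mef2d*, *Mef2a* and *Hdac11* were lower and *Hdac6* higher with KO in all 6 pairs. For *Mef2a* in series V of *Htt*+/+ mice the difference was only -0.006, which is next to none. The mean log2 differences of *Mef2d* were -0.35, -0.166 and -0.209 for *Htt*+/+ and -0.051, -0.379 and -0.199 for *Htt* Q111/+, in the order A, V, Z. Those of *Hdac6* were 0.201, 0.242 and 0.229, and 0.031, 0.089 and 0.32. The *Mef2c* differences varied, at 0.224, -0.022 and 0.17 in *Htt*+/+ and 0.025, -0.421 and -0.699 in *Htt* Q111/+. Sets held 1 to 5 mice, so these are descriptions without a test. Among the carriers the V mice had 131 to 144 repeats and the A and Z mice 110 to 118, so repeat length differs between these sets. On the 2 dates with both *Hdac2* genotypes, *Hdac11* differed by -0.241 on 27 May and -0.068 on 25 May, *Hdac6* by 0.19 and 0.058, and *Mef2c* by -0.444 and -0.184, each resting on 1 KO library.

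The *Htt* Q111 allele was compared with *Htt*+/+ within *Hdac2* WT and within *Hdac2* KO mice, to see whether mutant *Htt* alters these genes and whether it does so without HDAC2. With surrogate variables as covariates no member passed in either case with edgeR, and *Mef2c* passed in *Hdac2* WT mice in 2 of 18 alternatives, those with extraction date or the series letter of the mouse identifiers in their place. In *Hdac2* WT mice 0 of 11 passed, where 0.403% of 17133 genes did, 2 members and 10.9% of all genes had an unadjusted p under 0.05, and DESeq2 and limma-voom also called 0. In *Hdac2* KO mice 0 of 11 passed, where 0.00584% of 17110 genes did, 3 members and 7.52% of all genes had an unadjusted p under 0.05, and DESeq2 and limma-voom also called 0. These comparisons share control samples with those of *Hdac2* KO, so the values stand side by side with no comparison between them.

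The members with an unadjusted p under 0.05 were *Mef2c* and *Hdac11* in *Hdac2* WT mice and *Mef2c*, *Mef2a* and *Hdac11* in *Hdac2* KO mice. *Mef2c* had a log2 fold change, *Htt* Q111/+ over *Htt*+/+, of 0.16 ± 0.05 in *Hdac2* WT mice (adjusted p = 0.152, higher in 5 of 7) and of -0.08 ± 0.04 in *Hdac2* KO mice (adjusted p = 0.638, lower in 9 of 11). Within the 3 extraction dates with *Hdac2* WT mice of both *Htt* genotypes, its mean log2 differences were 0.122, 0.507 and 0.347. The value of 0.507, on 25 May, rests on 2 *Htt* Q111/+ libraries. Among them is replicate 7, which had the highest *Mef2c* level and 433 CPM of cortical markers. With extraction date as a model term *Mef2c* was at 0.32 in *Hdac2* WT mice (adjusted p = 0.0464) and with the series letter at 0.35 (adjusted p = 0.0153, range over alternatives 0.0153 to 0.6), and both passed. The series letter follows repeat length among the carriers. Neither fit was run without replicate 7. With surrogate variables, the fits without that library or without the libraries rich in cortical markers did not pass. *Hdac11* was at -0.09 (adjusted p = 0.435, lower in 6 of 7) and -0.08 (adjusted p = 0.537, lower in 9 of 11). *Mef2a* was at -0.08 ± 0.03 in *Hdac2* KO mice (adjusted p = 0.485, lower in 7 of 11).

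Averaged over both *Hdac2* backgrounds, 0 of 11 members passed for *Htt* Q111, where 1.27% of 17346 genes did. With edgeR 2 members, *Hdac11* and *Mef2a*, and 12.3% of all genes had an unadjusted p under 0.05, and DESeq2 and limma-voom called 0. *Hdac11*, the member nearest to the threshold, was at -0.09 (adjusted p = 0.121), and it passed in 3 of 17 alternatives (adjusted p 0.0204 to 0.249). The members' median absolute log2 fold change was 0.04, as it was over all genes tested.

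The interaction term asks whether the effect of *Hdac2* KO differs between the *Htt* backgrounds. With edgeR 0 of 11 members passed, where 0.00577% of 17346 genes did, 1 member and 5.63% of all genes had an unadjusted p under 0.05, and DESeq2 and limma-voom called 0. That member was *Mef2c*, at -0.25 ± 0.06 on the log2 scale (95% confidence interval -0.37 to -0.13, adjusted p = 0.47), which places the *Htt* Q111/+ KO mice lower than the sum of both separate effects. It was negative under each alternative model tried, from -0.41 to -0.20, and passed in none (adjusted p 0.132 to 0.927). For none of the 11 members did this test show that *Hdac2* KO acted differently in the 2 backgrounds.

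Sex was compared over all 35 mice. With edgeR 0 of 11 members passed, where 0.0807% of 17346 genes did, and 1 member and 8.32% of all genes had an unadjusted p under 0.05. That member was *Hdac4* ENSMUSG00000073617, at 0.19 ± 0.07 on the log2 scale, female over male, and ENSMUSG00000026313 was at 0.15. X-linked *Hdac6* was at -0.03 ± 0.03. DESeq2 and limma-voom were not run on sex.

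Levels of some members varied together over the 35 libraries. These are Pearson correlations of log CPM, and the libraries share the genotype groups and extraction dates, so they are descriptions. The pairs with the highest r were *Hdac6* with *Hdac7* (0.642), the 2 *Hdac4* entries, *Mef2a* with *Mef2d* (0.605) and *Mef2d* with *Hdac11* (0.56). *Mef2c* correlated with *Mef2a* at 0.505 and with *Mef2d* at 0.49. Negative values were found for *Hdac9* with *Mef2a* (-0.506), *Hdac5* with *Mef2c* (-0.476), *Hdac5* with *Mef2a* (-0.436) and *Hdac6* with *Mef2d* (-0.429). Some other pairs of class IIa and MEF2 genes were positive, such as *Hdac4* ENSMUSG00000026313 with *Mef2d* (0.422) and *Hdac5* with *Mef2d* (0.129).

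The genes whose log CPM was most like that of each member over the same 35 libraries were named by rank. *Hdac6* was closest to *Lrrc16b* (r = 0.947), a regulator of actin capping protein, and *Dpysl4* (0.9), a collapsin response mediator. *Hdac11* was closest to *Srebf2* (0.892), the master regulator of sterol synthesis, and *Slc8a2* (0.853), a sodium-calcium exchanger. *Mef2c* was closest to *Prkaa2* (0.878), an AMP-activated kinase subunit, and *Slc4a10* (0.876), a neuronal bicarbonate transporter. *Mef2d* was closest to *Cit* (0.855) and *Flrt1* (0.855), *Mef2a* to *BC007180* (0.858) and *Tmem106b* (0.852), a lysosomal membrane protein, and *Hdac5* to *Gas2l1* (0.857) and *Samd4b* (0.845). *Hdac7* was closest to *Pnpla3* (0.862), *Hdac9* to *Soat1* (0.764), *Hdac4* ENSMUSG00000026313 to *Unc79* (0.835), *Hdac4* ENSMUSG00000073617 to *Zbtb40* (0.683) and *Hdac10* to *Hspb3* (0.648).

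The class I relatives were read beside the members. *Hdac1*, the closest paralog of *Hdac2*, stood at 5.33, 5.89 and 6.82 CPM in *Htt*+/+ *Hdac2* WT and at 8.37, 8.81 and 9.84 CPM in *Htt*+/+ *Hdac2* KO. In *Htt* Q111/+ mice it stood at 5.73, 6.73 and 7.76 CPM in *Hdac2* WT and at 8.63, 9.37 and 11 CPM in *Hdac2* KO. The KO and WT libraries did not overlap in either background, and *Hdac1* rose by 0.54 ± 0.07 and 0.49 ± 0.06 on the log2 scale, more than any member changed with *Hdac2* KO. *Hdac3*, the catalytic partner of class IIa complexes, and *Hdac8* did not pass in any comparison with *Hdac2* KO.

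The kinases that act on class IIa deacetylases held 17 tested genes. In *Htt*+/+ mice 2 rose and 4 fell with *Hdac2* KO, and in *Htt* Q111/+ mice 2 rose and 3 fell, 35.3% and 29.4% of the list beside 17.8% and 16.5% of all genes tested. The calcium-calmodulin kinase genes *Camk2b* (-0.35 ± 0.05 and -0.30 ± 0.04, log2, *Htt*+/+ then *Htt* Q111/+) and *Camk2a* (-0.26 ± 0.06 and -0.26 ± 0.05) fell in both. *Camk2d* rose in *Htt*+/+ (0.21 ± 0.07), where *Mark2* fell (-0.17 ± 0.03). *Camk4* rose in *Htt* Q111/+ (0.14 ± 0.05), as did *Sik1*, a salt-inducible kinase that phosphorylates class IIa enzymes (0.515 ± 0.13). The list's median log2 fold change was -0.037 and -0.035, beside -0.0014 and -0.0044 over all genes tested. Of 7 genes of 14-3-3 proteins, which hold phosphorylated class IIa enzymes in the cytoplasm, *Ywhaq* rose (0.12 and 0.09) and *Ywhaz* fell (-0.11 and -0.085) in both backgrounds, 28.6% of the list in each, and the list's medians were 0.029 and -0.007.

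Of 8 tested phosphatase and kinase genes that act on MEF2, 1 fell in each background. It was *Ppp3r1*, the regulatory subunit of calcineurin, at -0.26 ± 0.05 and -0.16 ± 0.05, and the list's medians were -0.032 and -0.045. In each background 12.5% of the list passed, beside 17.8% and 16.5% of all genes tested (*Htt*+/+ then *Htt* Q111/+). Of 13 corepressor and coregulator genes, *Ctbp1* fell in *Htt*+/+ (-0.08), and *Tbl1x*, a subunit of the complex that joins class IIa enzymes to HDAC3 (-0.18), and *Crebbp*, an acetyltransferase that coactivates MEF2 (-0.17), fell in *Htt* Q111/+. None rose, and 7.69% and 15.4% of the list passed, also below the shares over all genes. The medians were -0.015 and -0.073. *Mef2b*, the remaining MEF2 gene, did not pass the filter on low counts and was not tested.

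Of 13 genes described as MEF2-regulated, 1 rose and 1 fell in *Htt*+/+, 15.4% of the list beside 17.8% of all genes tested. The list's medians were -0.046 in *Htt*+/+ and 0.012 in *Htt* Q111/+. The immediate early gene *Klf6* rose in *Htt*+/+ (0.19 ± 0.05), and the potassium channel gene *Kcna1* fell in both backgrounds (-0.16 ± 0.03 and -0.12). With *Htt* Q111 in *Hdac2* WT mice *Homer1*, a postsynaptic scaffold gene, fell (-0.33 ± 0.07), the 1 gene of these pathway lists to pass in that comparison. None of the lists' genes passed in *Hdac2* KO mice for *Htt* Q111 or for the interaction with edgeR. Averaged over both *Hdac2* backgrounds, *Homer1* (-0.28 ± 0.04), the immediate early gene *Jun* (-0.25 ± 0.06) and *Ppp3ca*, the catalytic subunit of calcineurin (-0.12 ± 0.03), fell with *Htt* Q111.

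Of 13 tubulin and aggresome partners of HDAC6, 2 fell in *Htt*+/+ and 3 in *Htt* Q111/+ (15.4% and 23.1%, beside 17.8% and 16.5% of all genes tested), with medians of 0.027 and 0.039. *Tuba4a*, an alpha tubulin, fell in both (-0.22 and -0.14), as did *Sqstm1*, the autophagy adaptor p62 (-0.13 and -0.13), and the dynactin subunit gene *Dctn1* fell in *Htt* Q111/+ (-0.12). *Tuba4a* also fell with *Htt* Q111 on average (-0.12). Of 11 polyamine genes, which act on the substrates of HDAC10, the spermine synthase gene *Sms* rose in both (0.19 and 0.13) and the spermine oxidase gene *Smox* in *Htt* Q111/+ (0.15), 9.09% and 18.2% of the list, with medians of 0.019 and 0.02. None of the polyamine genes fell.

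Marker genes of striatal cell types were summed to read the tissue. The 10 MSN markers summed to 7230, 7840 and 8220 CPM in *Htt*+/+ *Hdac2* WT and to 5260, 5630 and 7240 CPM in *Htt* Q111/+ *Hdac2* WT, and to 6950, 7790 and 8180 CPM in *Htt*+/+ *Hdac2* KO and 5990, 6750 and 7540 CPM in *Htt* Q111/+ *Hdac2* KO. None of the 10 was near 0, and the most abundant was *Penk*, with group medians of 1170 to 1950 CPM. With *Htt* Q111 5 of the 10 fell in *Hdac2* WT mice, among them *Penk* (-0.49), where 0.403% of all genes tested passed. In *Hdac2* KO mice 0 of the 10 passed for *Htt* Q111. On average 7 of 10 fell, where 1.27% of all genes tested passed. With *Hdac2* KO 2 rose and 2 fell in *Htt*+/+ mice and 2 rose in *Htt* Q111/+ mice, where 17.8% and 16.5% of all genes tested passed. *Ppp1r1b*, whose regulatory sequence drives Cre, rose in both (0.24 and 0.31). The part of MSN content in the members' values was not tested.

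Markers of other cells were read the same way. None of the 8 oligodendrocyte, 6 microglial, 6 endothelial or 4 mural markers passed for *Hdac2* KO or for *Htt* Q111 with edgeR. Of 7 astrocyte markers, *Slc1a2* fell with *Hdac2* KO in both backgrounds and *Aqp4* fell with *Htt* Q111 in *Hdac2* WT mice. Of 5 interneuron markers, *Sst* passed with *Hdac2* KO on average with a negative fitted change (-0.11 ± 0.04), while its median CPM was higher in KO, at 96.1 and 103 in *Htt*+/+ WT and KO and 91.0 and 97.1 in *Htt* Q111/+ WT and KO. Of 5 choroid plexus markers 4 passed the filter over the groups and were summed, and they varied between libraries. With *Hdac2* KO 3 were tested in *Htt*+/+ and 4 in *Htt* Q111/+. Of these *Clic6* rose in both backgrounds and *Ttr* fell in *Htt*+/+ (-3.12). Their sums were highest in *Htt*+/+ *Hdac2* WT replicate 1 (209 CPM) and *Htt* Q111/+ *Hdac2* KO replicate 1 (144 CPM). The 5 cortical projection neuron markers, most abundant *Slc17a7*, had median sums of 15.5 to 25.1 CPM in the 4 groups and stood at 433 CPM in *Htt* Q111/+ *Hdac2* WT replicate 7 and at 167 and 132 CPM in *Htt*+/+ *Hdac2* KO replicates 6 and 2. None of these 5 passed. The part of these cells in the members' values was not tested beyond the fits without those 3 libraries.

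The promoters of the members were searched for the MEF2 consensus, since MEF2 factors are known to act on their own genes and on those of their class IIa partners. The windows were 300 bases around the starts of genes from RefSeq (GRCm38.p6), searched on both strands. A match was present in 1047 of all 32851 promoters (3.19%), in 2 of the 15 promoters of the members (13.3%) and in 2 of the 17 promoters of the MEF2-regulated genes (11.8%). It was present in 0 of 18 promoters of the kinases, 0 of 15 of the corepressors and 0 of 10 of the polyamine genes. *Hdac10* has no entry. The members with a match were *Mef2a* and *Hdac5*, and the regulated genes with one were *Jun* and *Klf2*. Each is shown with 10 bases on either side, with the match in capitals, at chr7:67372841-67372870 (minus strand) for *Mef2a*, chr11:102230173-102230202 (minus strand) for *Hdac5*, chr4:95052236-95052265 (minus strand) for *Jun* and chr8:72318934-72318963 (plus strand) for *Klf2*.
Mef2a: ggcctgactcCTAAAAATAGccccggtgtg
Hdac5: gggtctgagcCTATTTTTAGctcggggtcg
Jun: acatcatgggCTATTTTTAGggattgactg
Klf2: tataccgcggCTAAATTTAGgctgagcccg
*Hdac5* and *Jun* hold the same 10 bases between different flanks, and the match of *Mef2a* is the reverse complement of these bases. In *Mef2a* the window spans the 5′ end of the gene in GENCODE M21 (67372858), and in *Hdac5* it lies upstream of that end (102230166). A match is a description, not a site or a cause.

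The members lie on 9 chromosomes. *Hdac7* and *Hdac10* are on chromosome 15 (GRCm38 chr15:97792664-97844164 and chr15:89123307-89128448), *Hdac6* is on X (chrX:7930120-7947838), *Hdac11* on 6 (chr6:91156665-91173283) and *Hdac5* on 11 (chr11:102194432-102230146). *Hdac9* is on 12 (chr12:34371503-34528889), *Mef2a* on 7 (chr7:67231163-67372827), *Mef2c* on 13 (chr13:83504034-83664472) and *Mef2d* on 3 (chr3:88142372-88168906). The MEF2 genes are thus unlinked to each other, and both class IIb genes are on different chromosomes. Their identifiers are ENSMUSG00000022475, ENSMUSG00000062906, ENSMUSG00000031161, ENSMUSG00000034245, ENSMUSG00000008855, ENSMUSG00000004698, ENSMUSG00000030557, ENSMUSG00000005583 and ENSMUSG00000001419, in the order named.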

How the data were processed

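Striatal RNA of 35 mice was sequenced as paired reads. The authors aligned them with GSNAP to GRCm38 and counted unique alignments over each Ensembl gene interval with bedtools, and the deposited values are raw counts. Counts of 2 are more frequent than counts of 1 or 3 over the libraries (38841, 17333 and 8913), so 1 fragment often counts as 2. Genes spanning up to 250 bases (6152), 92 spike-ins and 2 mitochondrial ribosomal RNA entries were removed. A gene was kept when each library of 1 compared group held 6 or more counts, and kept genes were tested in edgeR 4.0.16 (R 4.3.3) with TMM scaling, 9 surrogate variables from sva 3.50.0, quasi-likelihood F tests (two-sided) and Benjamini-Hochberg adjustment over all genes tested, with a threshold of 0.05. Libraries were grouped by labelled genotype. SE is the fold change over the square root of F. DESeq2 1.42.0 and limma-voom 3.58.1, and other covariates, scalings, filters and library sets, were tried as alternatives.

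Named genes were all members, up to 4 genes of a list that passed with the largest change, and the 3 genes most like each member by r, of which at least the first is printed. Members and lists were chosen with earlier results of these data known. *Azin2* and *Drd1* were matched by the older symbols *Adc* and *Drd1a*. 1 result for the MEF2-regulated genes is not reported here. No protein sequences were at hand. Libraries held 50970712 or more counts. Confidence intervals include counting error and variation between mice, which were not separated.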

Additional observations from a re-analysis of the deposited data

Results flagged for a closer look

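Each member was examined for a library far from the others in the groups of up to 10 mice, and 1 of 33 groups had one. *Hdac4* ENSMUSG00000026313 stood at 10.4 CPM in *Htt*+/+ *Hdac2* KO replicate 1, where the nearest library had 14.3 and the highest 18.3 CPM. Chance flags about 1 in 20 groups. *Htt* Q111/+ *Hdac2* KO, with 11 mice, was not examined.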

How the results depend on the processing

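For part of the member results printed above, 443 alternative values were compared. Of these, 357 kept their direction and their side of the threshold, 41 newly passed, 32 no longer passed and 13 changed sign. The other member results had 932 alternative values, of which 774 stayed the same, 140 changed sign and 18 newly passed. Some of those results are printed above, among them both *Hdac4* entries, *Hdac7* and *Hdac10* with *Hdac2* KO. The cause was not tested for any of these. The number of members called with *Hdac2* KO in *Htt*+/+ (2) was 5 without covariates, 4 with sex, 1 with extraction date, 4 with the series letter of the mouse identifiers and 5 with the replicate block in place of surrogate variables, 4 with the edgeR default filter, 0 in males only, 5 with only the libraries of the 2 groups and 1 without the 3 libraries rich in cortical markers. In *Htt* Q111/+ (4) it was 1 with date, 2 with the replicate block and 2 with no filter. Averaged over both (4) it was 1 with date. For *Htt* Q111 in *Hdac2* WT mice (0) it was 1 with date and 1 with the series letter, *Mef2c* in each, and averaged over both *Hdac2* backgrounds (0) it was 1 without covariates, 1 with the series letter and 1 with the replicate block, *Hdac11* in each. Without *Htt* Q111/+ *Hdac2* WT replicate 7 it was 3 in *Htt*+/+, where *Mef2d* passed, and 4 in *Htt* Q111/+. This library and the 3 rich in cortical markers, and robust quasi-likelihood dispersions, were chosen as alternatives after seeing the data.

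Among the 443 values, signs changed for 2 genes. The genes of the other 140 sign changes are not named here. *Mef2c* with *Hdac2* KO in *Htt*+/+ was -0.0731 without covariates, -0.0706 with sex, -0.051 with date, -0.0796 with the replicate block and -0.0098 with only the 2 groups' libraries, and for *Htt* Q111 in *Hdac2* KO mice it was 0.0449 with the replicate block. *Hdac5* with *Hdac2* KO in *Htt* Q111/+ was 0.0261 without covariates, 0.0352 with sex, 0.0254 with the series letter and 0.0079 in males, and on average 0.0126, 0.0154 and 0.0112 without covariates, with sex and in males. *Mef2d* in *Htt* Q111/+ passed in 17 of 18 alternatives (0.0544 in males, range of adjusted p from 0.00012), and was -0.25 with the replicate block. Replicate numbers do not pair libraries: correlations between groups at the same number ran from -0.206 to 0.289, median 0.0418, over 45 pairs, 15 of them over 0.1.

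The number of all genes called moved by over 1.5 times in these cases. With *Hdac2* KO in *Htt*+/+ (3056) it was 822 with date, 1970 in males and 5094 with only the 2 groups' libraries. In *Htt* Q111/+ (2841) it was 331 with date, 1854 with the replicate block and 1711 in males, and on average (4341) 802 with date. For *Htt* Q111 in *Hdac2* WT mice (69) it was 419 with date, 837 with the series letter, 13 with the replicate block, 152 with DESeq2, 34 with no filter, 38 with the edgeR default filter, 10 in males, 258 without the 2 mice with 1 floxed allele and 0 with only the 2 groups' libraries. In *Hdac2* KO mice (1) it was from 0 with date, in males or without the cortical-rich libraries to 42 with DESeq2, with 2 with the series letter, 23 with the replicate block, 3 with RLE scaling, 5 with the newer edgeR form, 4 with limma-voom or no filter, and 3 with the edgeR default filter, short genes kept or only the 2 groups' libraries. For the interaction (1) it was 7 with the series letter, 3 with DESeq2 and 0 without covariates, with sex, date or the replicate block, with no filter or the edgeR default filter, in males, without the mice with 1 floxed allele, without replicate 7 and without the cortical-rich libraries. For *Htt* Q111 on average (220) it was 403 with date, 629 with the series letter, 365 with the replicate block, 374 with DESeq2, 144 with no filter, 119 in males, 381 without the mice with 1 floxed allele and 91 without the cortical-rich libraries.

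Extraction dates nearly follow the *Hdac2* genotype, so date and deletion can be told apart only through the 2 dates that hold both genotypes of 1 *Htt* background and the models that share dates. *Hdac10* and both *Hdac4* entries had the fewest counts in their lowest library among the members (305, 575 and 606), and *Hdac7* followed with 648. How far depth limits each member was not tested. With counts over whole gene intervals, introns and exons are not separated.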
